A study of Homo sapiens with 6 samples.

Results

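The Mediator complex was examined through the transcripts of its subunits in LX2, a human line of hepatic stellate cells that is established and widely used to study the matrix-producing cells of liver fibrosis. Protein-coding genes of the deposited table were taken when named MED followed by a number, with or without a final L, or named CDK8, CDK19 or CCNC. This gave 33 of the 60623 genes. The cells grew in medium with 2% serum and were harvested at 36 h of transfection, with 3 libraries from cells given control siRNA (siNC) and 3 from cells given siRNA that targets SHMT2 (siSHMT2). SHMT2 is the mitochondrial enzyme that turns serine into glycine and passes a one-carbon unit to folate. The labels give the siNC cells as wild type and the siSHMT2 cells as SHMT2 knockdown. Separate cultures are not named for the replicates, so a p-value here reflects the spread of these 6 samples alone, and that spread may be technical. Untransfected cells and a second siRNA against SHMT2 were not analysed here.

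Mediator is a large assembly that carries signals from transcription factors bound at enhancers to RNA polymerase II at promoters. Its head and middle modules contact the polymerase, MED14 runs through the core as a scaffold, and the tail module receives most activators. A separable kinase module of CDK8 or CDK19, cyclin C (CCNC), MED12 and MED13 or their paralogs MED12L and MED13L docks on the core and hinders its contact with the polymerase. Sources differ on the placement of MED19, MED26 and MED27 to MED30. Here MED28 and MED30 were counted in the head, MED19 and MED26 in the middle, and MED27 and MED29 in the tail.

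The values are FPKM, fragments scaled by gene length and library size. Comparisons of level between genes therefore rest on the gene lengths of the deposited table, which are long for some members. Reads recovered from the FPKM numbered 14722344 to 15669139 in each library. SHMT2 itself had a mean of 47.4 ± 8.02 FPKM in siNC and 2.26 ± 0.162 in siSHMT2 (SD, n = 3). It fell by 3.88 on the log2(FPKM + 1) scale (limma adjusted p = 2.08e-05), and an exact two-sided permutation test over the 6 libraries had its lowest possible p of 0.1. Of 10 stellate or mesenchymal markers, 6 had a mean of at least 1 FPKM (COL1A1, COL1A2, COL3A1, VIM, PDGFRB and TIMP1). The summed level of the 10 did not overlap between groups, at 1643 to 2535 FPKM over the siNC libraries against 1246 to 1458 over the siSHMT2 libraries, and its part in the results was not tested. ACTA2, DES, LRAT and DCN did not reach 1 FPKM, and LRAT, the retinol esterifying enzyme of quiescent stellate cells, was listed at 0 in all libraries. None of 5 hepatocyte and none of 5 endothelial markers had a mean of 1 FPKM, with summed levels of 0.299 to 1.35 and 0.310 to 0.626 FPKM. Of 5 leukocyte markers 1 (CD14) and of 5 epithelial markers 2 (KRT7 and SOX9) did, with summed leukocyte levels of 14.3 to 19.2 FPKM (siNC) and 13.2 to 15.1 (siSHMT2) and summed epithelial levels of 9.82 to 11.2 and 8.72 to 9.66.

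MED11 and MED24 rose and MED28 fell in siSHMT2, and no other Mediator transcript was called. Genes with a mean of at least 1 FPKM over the 6 libraries were tested (10865 genes) with limma on log2(FPKM + 1), a scale that understates the change of low genes. Calls were made at a Benjamini-Hochberg adjusted p under 0.05 over all of them. The filter kept 28 of the 33 members. The 2 called higher compare with 6.07% of all tested genes called higher, and the 1 called lower with 9.85% called lower. In both directions together 3 of the 28 members were called, against 15.9% of all tested genes. Values were positive for 18 members and negative for 10, with a median difference of 0.075, against a median of 0.018 over all tested genes. Positive values made up 64.3% of the tested members and 52.9% of all tested genes. Without siNC replicate 1, 14 members were positive and 14 negative. Being scaled to library size, the values show neither the number of cells nor the total RNA per cell.

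**Figure D1:**
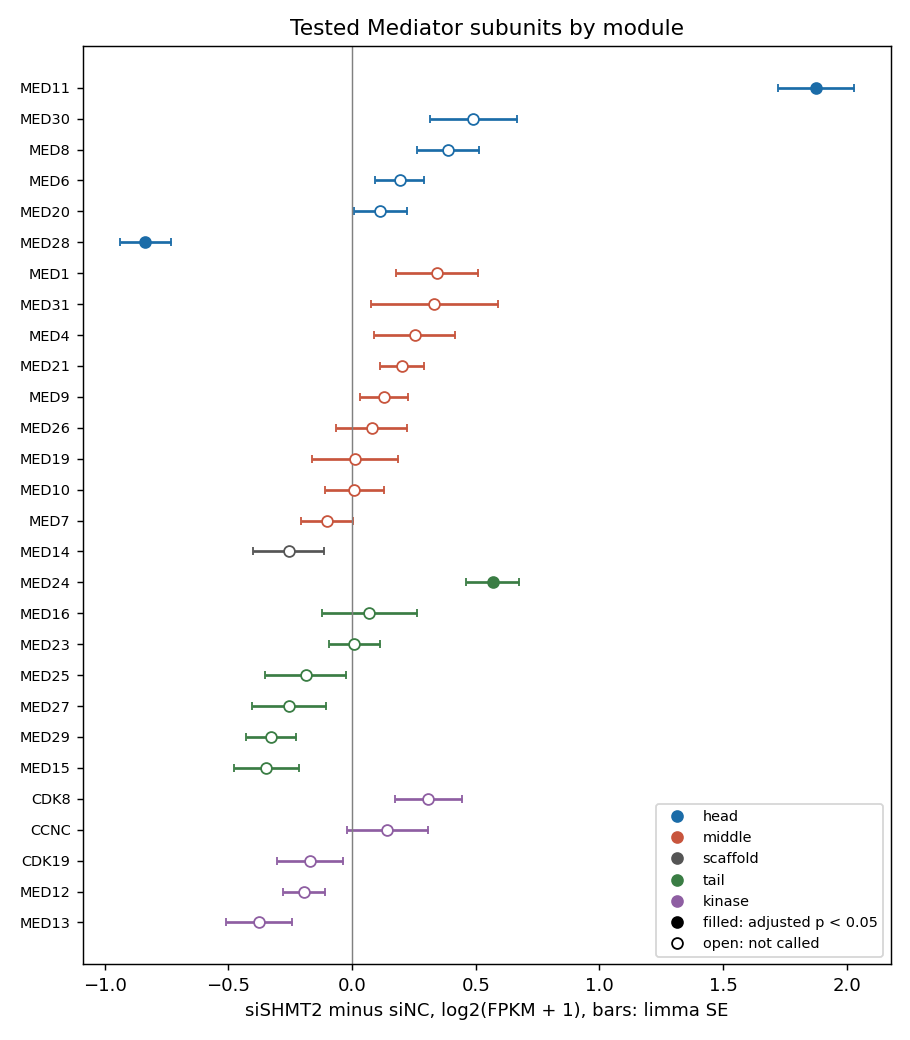
Difference between siSHMT2 and siNC for the 28 tested Mediator transcripts on the log2(FPKM + 1) scale, with the limma standard error as bars, grouped and coloured by module. Filled points (MED11 at 1.88, MED24 at 0.57 and MED28 at -0.84) were called, open points were not.

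In the head module 1 of 6 tested members rose and 1 fell, and these were the largest rise and the largest fall among the tested Mediator transcripts. MED11 (ENSG00000161920, chromosome 17, 4731428 to 4733607, plus strand) encodes a small head subunit that pairs with MED22 in a helical bundle next to MED17. Its level was 1.86, 1.83 and 3.06 FPKM in the siNC libraries, from 48, 39 and 71 reads. In the siSHMT2 libraries it was 10.8, 10.02 and 11.5 FPKM, from 255, 245 and 268 reads. Every siSHMT2 library lay above every siNC library, with means of 2.25 ± 0.703 and 10.8 ± 0.738 FPKM (SD, n = 3) and a ratio of 4.79. MED11 rose by 1.88 (SE 0.152, limma adjusted p = 0.000369), which ranked 3 from the top of the 10865 genes tested. It was called in each of the 16 other settings tried, with differences from 1.63 to 2.37 and limma adjusted p from 2.51e-05 to 0.00556. The rise of MED11 was known when these genes were chosen. Its p-value, rank and calls follow from that and are no separate support. By mean FPKM as listed, MED11 was 27 in the order of the 33 members in siNC and 13 in siSHMT2.

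Other genes share part of the MED11 exons. In the GENCODE 29 annotation 31.1% of the exonic bases of MED11 also lie in an antisense noncoding gene, AC091153.4, and 5.75% in the 3′ end of CXCL16, a chemokine gene on the other strand. AC091153.4 was listed at 0 in all siNC libraries and reached 0.126 FPKM in 1 siSHMT2 library. CXCL16 had a siNC range of 0.890 to 1.21 FPKM and a siSHMT2 range of 0.669 to 1.03. CXCL16 had 31 to 59 reads per library, and its siNC and siSHMT2 ranges overlap. Whether strand was used in the counting is not stated by any source at hand.

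MED28 (ENSG00000118579, chromosome 4, 17614641 to 17634105, plus strand), a head subunit found in animals that was also described as a partner of merlin and Grb2 at the cytoskeleton, fell by 0.84 (SE 0.102, limma adjusted p = 0.00186). Its level was 4.78, 5.38 and 5.66 FPKM in siNC, from 918, 856 and 977 reads. In siSHMT2 it was 2.73, 2.52 and 2.29 FPKM, from 480, 459 and 397 reads. The groups did not overlap, and mean FPKM in siSHMT2 came to 47.7% of that in siNC. In each of the 15 other settings that tested MED28 it was called, with differences from -1.04 to -0.78. FAM184B, which shares 32.1% of the exonic bases of MED28 on the other strand, stayed at or below 0.113 FPKM in all libraries, and the noncoding AC006160.1 upstream at or below 0.0597.

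The other 4 tested head members were not called. MED8, whose C-terminal end tethers the MED18 and MED20 pair to the head, was the most abundant head transcript. It measured 32.2, 33.6 and 41.4 FPKM in siNC and 46.9, 44.7 and 48.9 in siSHMT2. Its groups did not overlap, but the difference of 0.39 missed the threshold (limma adjusted p = 0.0747). It passed with TPM scaling (0.49, adjusted p = 0.0354), with FPKM from plain read sums (0.47, 0.0328), with voom on recovered reads (0.48, 0.0263) and without siNC replicate 3 (0.50, 0.0397). MED30, another subunit found in animals, measured 4.25, 2.92 and 2.96 FPKM in siNC and 4.42, 6.66 and 4.44 in siSHMT2, with no overlap and 61 to 159 reads per library (difference 0.49, limma adjusted p = 0.102). It was called with array weights (0.48, limma adjusted p = 0.0208) and without siNC replicate 1 (0.63, adjusted p = 0.0443). The difference was 0.32 without siSHMT2 replicate 2, the high library (adjusted p = 0.280). MED6, which bridges the head and middle modules, and MED20 differed by 0.19 and 0.11, with overlapping groups.

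The 3 remaining head genes lay below the filter. MED17, the scaffold of the head, had 37 to 52 reads per library over a gene model of 16610 bases, which gave a siNC range of 0.154 to 0.179 FPKM and a siSHMT2 range of 0.165 to 0.174. In GENCODE 29, 13.0% of its exonic bases are also exons of AP001273.2, a gene on the same strand. MED18 had 1 to 16 reads and at most 0.502 FPKM. MED22, the partner of MED11, was listed at 0 in all 6 libraries. Its neighbours SURF6 and SURF1, genes of the same surfeit cluster that are used by most cells, were listed at 0 as well, and the ribosomal protein gene RPL7A next to it read 4.67 to 9.06 FPKM. A value of 0 in this stretch of chromosome 9 is therefore given as listed and not as absence of the transcript.

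**Figure D2:**
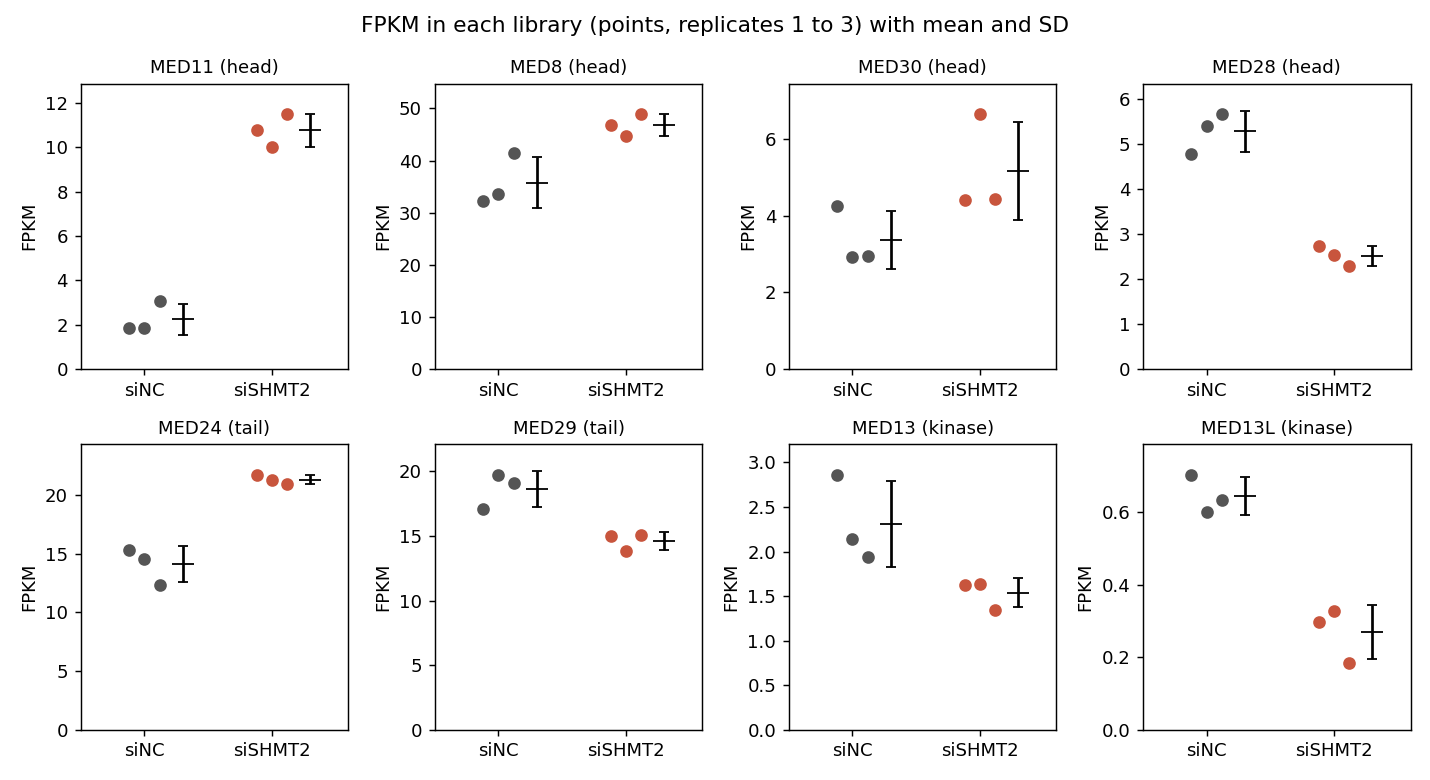
FPKM of 8 Mediator transcripts in each library (vertical axes start at 0, grey points siNC, red points siSHMT2, black marks mean and SD, n = 3). The siNC points of MED11 lie between 1.83 and 3.06 FPKM, its siSHMT2 points between 10.02 and 11.5, and the groups of each panel did not overlap.

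Sums over the genes of a module are weighted towards its abundant members and were not tested. All 9 head genes together came to 59.7, 63.8 and 69.9 FPKM in siNC and to 85.4, 83.3 and 87.8 in siSHMT2, with no overlap between groups. MED8, which was not called, and MED11 made up most of that difference in level. The head sum therefore adds no support beyond these genes, and MED28 of the same module fell. The middle module summed to 174.0 ± 16.7 and 180.2 ± 4.54 FPKM, the tail to 149 ± 25.6 and 143 ± 11.4, and the kinase module to 25.7 ± 3.76 and 25.2 ± 0.914 (siNC and siSHMT2, SD, n = 3). These 3 sums overlapped between groups.

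No middle member was called, although all 9 passed the filter. Of these, 8 had a positive difference, and 52.9% of all tested genes were positive. On leaving out a library, the MED10, MED19 and MED26 differences fell as low as -0.028, -0.19 and -0.043. The count of 8 therefore does not show a rise of the module. MED10, which sits in the middle module beside MED14, was the most abundant Mediator transcript in both groups, with 86.9, 87.2 and 101.5 FPKM in siNC and 93.8, 96.1 and 87.2 in siSHMT2. Its difference of 0.0098 (SE 0.119) was far inside the spread, as was that of MED19, a subunit linked to the repressor REST (0.012, SE 0.175). MED21, which forms a flexible hinge with MED7, measured 10.1, 10.1 and 9.67 FPKM in siNC and 11.4, 11.3 and 12.1 in siSHMT2. The MED21 groups did not overlap, yet its difference of 0.20 was not called (limma adjusted p = 0.166).

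MED1, the subunit that binds nuclear receptors, measured 3.95, 2.44 and 4.05 FPKM in siNC and 4.48, 5.25 and 4.14 in siSHMT2 (difference 0.34, limma adjusted p = 0.210). Its groups are separated by a narrow gap, and without siNC replicate 2, the low library, the difference was 0.16 (limma adjusted p = 0.364). The same library was low for MED31 (1.61 FPKM against 4.01 and 4.25 in the other siNC libraries), so that the MED31 difference of 0.33 became 0.0069 without siNC replicate 2. MED31, a small conserved subunit, shares 58.3% of its exonic bases with TXNDC17 on the other strand. MED4, MED9, MED26 and MED7 differed by 0.25, 0.13, 0.080 and -0.10, with limma adjusted p from 0.348 to 0.750, and the MED4 difference was 0.084 without siNC replicate 2 and 0.16 without siSHMT2 replicate 2. MED26 is the subunit that recruits elongation factors. Part of its exonic sequence (27.2%) is shared with another gene model on the same strand.

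MED14 was not called. It measured 4.69, 2.99 and 3.63 FPKM in siNC and 3.15, 3.12 and 2.62 in siSHMT2, with overlapping groups (difference -0.26, SE 0.144, limma adjusted p = 0.284). Without siNC replicate 1, the high library, the difference was -0.12.

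In the tail module MED24 rose, 4 of 7 members had negative values and none of these was called. MED24 (ENSG00000008838, chromosome 17, 40019097 to 40061215, minus strand) encodes a tail subunit that works with MED16 and MED23 and was first found with the thyroid hormone receptor. Its level was 15.3, 14.6 and 12.4 FPKM in siNC, from 1868, 1469 and 1355 reads. In siSHMT2 it was 21.7, 21.3 and 21.0 FPKM, from 2423, 2455 and 2307 reads. The groups did not overlap, and MED24 rose by 0.57 (SE 0.108, limma adjusted p = 0.0116), a ratio of means of 1.51. The call was lost without siSHMT2 replicate 1, 2 or 3 (limma adjusted p = 0.0676, 0.0515 and 0.0525), while the difference stayed at 0.56 to 0.58 there. Calls over all tested genes were also fewer there. They numbered 229, 282 and 246 higher and 498, 592 and 547 lower, against 659 and 1070 with all libraries.

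The gene next to MED24 moved the same way. THRA, which encodes a thyroid hormone receptor and lies on the other strand, overlaps the span of MED24 by 2926 bases in the table, but no exon of the 2 genes is shared in GENCODE 29. THRA measured 5.38, 5.71 and 5.21 FPKM in siNC and 7.31, 7.44 and 7.34 in siSHMT2, and it rose by 0.38 (limma adjusted p = 0.0229). It was not called with the replicate block (0.0760), without siNC replicate 3 (0.0627) or without siSHMT2 replicate 1, 2 or 3 (0.109, 0.0965 and 0.0949). CSF3, the granulocyte colony-stimulating factor gene beyond the other end of MED24, measured 1.91, 6.28 and 3.49 FPKM in siNC and 1.04, 0.435 and 1.08 in siSHMT2 and fell by 1.32 (limma adjusted p = 0.0280). That call was lost without a filter (0.131), with the replicate block (0.0585), and on leaving out siNC replicate 3 (0.0748) or any siSHMT2 library (0.0613 to 0.0965). Of the small or noncoding genes within the span of MED24 or near it, MIR6884 was listed at 0 in all libraries, and SNORD124 and AC090844.3 had at most 1 read. A part of the neighbours in the MED24 values was not tested.

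MED29 and MED15 were lower in every siSHMT2 library without being called. MED29 measured 17.1, 19.7 and 19.1 FPKM in siNC and 15.0, 13.8 and 15.0 in siSHMT2 (difference -0.33, limma adjusted p = 0.0649). MED15, a target of SREBP and SMAD activators, measured 14.8, 20.7 and 17.1 FPKM in siNC and 13.2, 12.9 and 14.4 in siSHMT2 (-0.35, adjusted p = 0.122). Both were called without siNC replicate 1 (limma adjusted p = 0.0364 and 0.0399), with differences of -0.39 and -0.45, and with array weights (0.00559 and 0.00964). Without siNC replicate 2, the highest library, the MED15 difference was -0.23 (limma adjusted p = 0.187). MED16 was the most abundant tail transcript, at 40.1, 66.3 and 49.0 FPKM in siNC and 55.2, 46.2 and 59.2 in siSHMT2. The MED16 groups overlapped widely (difference 0.070, SE 0.192). MED25 and MED27 differed by -0.19 and -0.25 and MED23, a partner of the factor ELK1, by 0.0088, all with overlapping groups. Leaving out 1 library moved MED25 between -0.34 and -0.076 and MED27 between -0.38 and -0.12.

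**Figure D3:**
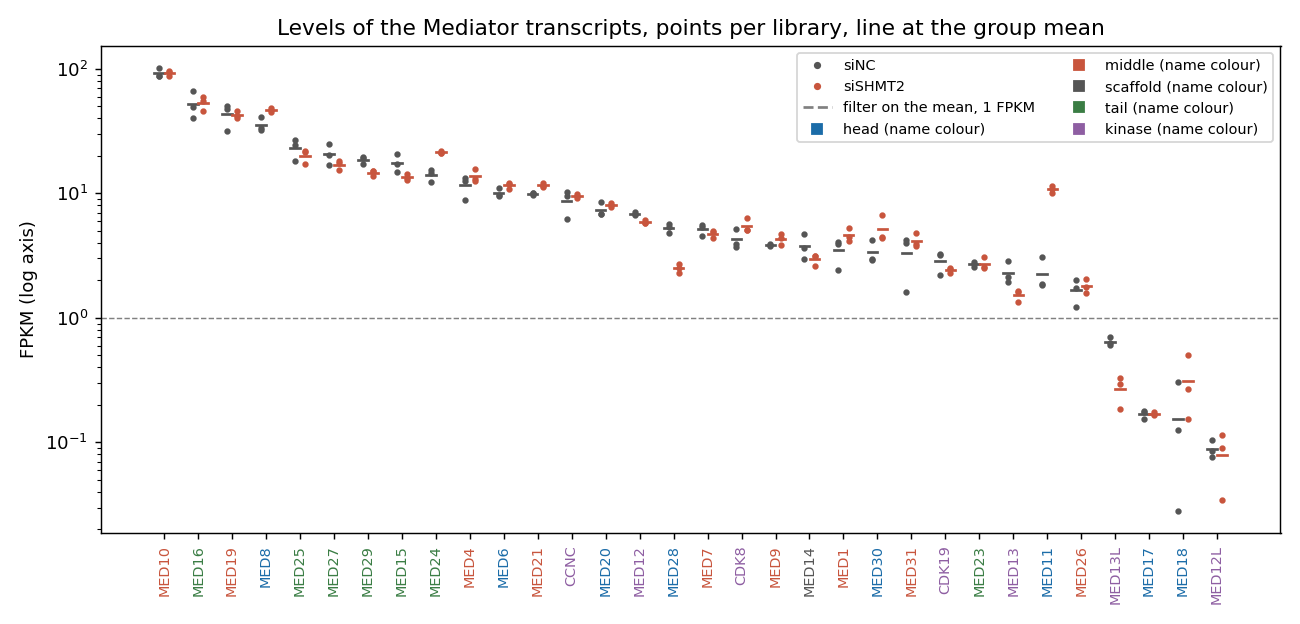
FPKM of the 32 Mediator transcripts with a value above 0, on a log axis, ordered by their siNC mean (grey siNC, red siSHMT2, points per library, line at the mean, names coloured by module). Levels run from about 92 FPKM (MED10) to below 0.2 FPKM, and MED11 stands apart from its siNC place.

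The subunits of the core are thought to be present in like numbers as proteins. The FPKM listed for their genes, a measure of RNA and not of protein, were not alike. The part of gene model length in these levels was not tested. In siNC the tested members, kinase module included, ran from 1.67 FPKM for MED26 to 91.9 for MED10. The siSHMT2 means ran from 1.54 for MED13, of the kinase module, to 92.3 for MED10. The 3 most abundant in siNC were MED10, MED16 and MED19, and in siSHMT2 MED10, MED16 and MED8. The siNC libraries were further apart: the SD on the log2 scale was larger in siNC for 23 of the 28 members (82.1%), against 79.0% of all tested genes.

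In the kinase module none of the 5 tested members was called. CDK8, the kinase itself, measured 5.17, 3.92 and 3.70 FPKM in siNC and 5.08, 6.31 and 5.10 in siSHMT2 (difference 0.31, limma adjusted p = 0.172). Its paralog CDK19 measured 3.24, 2.20 and 3.22 FPKM in siNC and 2.52, 2.30 and 2.47 in siSHMT2 (-0.17, adjusted p = 0.438). Both sets of groups overlapped, and the CDK19 difference ran from -0.30 to -0.10 on leaving out 1 library. Cyclin C (CCNC), the most abundant transcript of the module, measured 10.3, 6.27 and 9.48 FPKM in siNC and 9.85, 9.50 and 9.20 in siSHMT2 (0.14, adjusted p = 0.605). Its difference turned to -0.051 without siNC replicate 2, the low library.

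MED12 and MED13 had lower values in every siSHMT2 library than in any siNC library, without being called. MED12, which activates the kinase through cyclin C, measured 7.05, 6.70 and 6.81 FPKM in siNC and 6.10, 5.73 and 5.78 in siSHMT2, without overlap (difference -0.19, limma adjusted p = 0.174). MED13, which ties the module to the core, measured 2.86, 2.14 and 1.94 FPKM in siNC and 1.63, 1.63 and 1.35 in siSHMT2, without overlap (-0.38, adjusted p = 0.0984). Neither was called in any of the settings tried.

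MED13L, the paralog of MED13, lay below the filter of 1 FPKM although it had many reads, because its gene model in the table is 37364 bases long. It measured 0.702, 0.600 and 0.633 FPKM in siNC, from 459, 325 and 372 reads. In siSHMT2 it measured 0.295, 0.326 and 0.185 FPKM, from 177, 202 and 109 reads. The groups did not overlap, and mean FPKM in siSHMT2 came to 41.7% of that in siNC, below the 47.7% of MED28. On the log2(FPKM + 1) scale the difference was -0.38, and in the fit without the filter it was not called (limma adjusted p = 0.0805). In limma voom on recovered reads over genes with a mean of at least 10 reads, an alternative chosen after these values were seen, it was called at a log2 difference of -1.22 (adjusted p = 0.00645). That fit called 6.71% of 13989 genes higher and 6.43% lower, and among the members it called MED11, MED24 and MED8 higher and MED28 and MED13L lower. MED12L had 7 to 24 reads and at most 0.115 FPKM, with overlapping groups.

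Without regard to calls, the groups did not overlap for 6 tested members in the higher direction (MED11, MED24, MED8, MED30, MED21 and MED1) and for 5 in the lower (MED28, MED29, MED15, MED12 and MED13). Among all tested genes 17.9% were higher and 18.6% lower without overlap, 36.4% in all, and 11 of the 28 members.

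The 3′ ends of several lower members hold a sequence that went with lower values in these data. The 7-base words GACTTTA and ACTTTAA, which overlap by 6 bases and were sought on the transcript strand, had been picked in an earlier search of 3′ UTRs against the same fold changes. The shares given here, and the medians by word given below, follow from that choice and are no test of it. Taking for each gene its longest 3′ UTR in GENCODE 29, either word was present in 8 of the 28 tested members (28.6%), against 24.4% of 9449 tested protein-coding genes. Over those genes, it was present in 57.4% of those called lower, 10.5% of those called higher and 21.5% of those not called. MED28 held one and MED11 and MED24 none. Of the lower members without overlap, MED28, MED29, MED13 and the untested MED13L held a word, and MED15 and MED12 held none. The untested MED17 and MED12L also held a word, with overlapping groups and differences of -0.00058 and -0.013. The sites of MED28, MED29, MED13 and MED13L are shown, in the sense of the transcript with the words in capitals. Those of 3 members with positive values follow.
MED28, chr4:17633220-17633248, plus strand: cccgattaagaGACTTTAgaattccaagg
MED29, chr19:39399138-39399167, plus strand: aactgattatgGACTTTAAtcacatctaca
MED13, chr17:61944963-61944992, minus strand: tgaattttaggGACTTTAAttcacccctcc
MED13, chr17:61944278-61944306, minus strand: cacttaatagtGACTTTAcaaaataaaag
MED13L, chr12:115960614-115960642, minus strand: atggtttttgtGACTTTAtttttttaatt
MED13L, chr12:115959576-115959605, minus strand: agtgtaaaattGACTTTAAaaatattgcag
MED13L, chr12:115959270-115959298, minus strand: cctacaaaaaaACTTTAAaaaaaatggca
MED31, chr17:6643829-6643857, minus strand: actggactcttGACTTTAgaacaaacatg
CCNC, chr6:99543104-99543132, minus strand: ccataagtttaACTTTAAaactgtattta
MED6, chr14:70583778-70583806, minus strand: tttaaaactgtACTTTAAtcattcctttc

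Coordinates are those of GRCh38. MED29, the first MED13 site and the second MED13L site carry both words in overlap. The MED28 site begins 9433 bases into a 3′ UTR of 10307 bases, the longest among the members, so a transcript ending earlier would lack it. Gene-level values do not separate such transcripts. The other tested holders were MED7 and MED14, with differences of -0.10 and -0.26. The 8 tested holders had a median difference of -0.18, with 5 of 8 negative, and the 20 without a word a median of 0.10, with 5 of 20 negative. Over all tested protein-coding genes the medians were -0.13 with a word and 0.06 without. The holders among the members also had longer 3′ UTRs (median 2128 bases against 969.5), and the part of length in these medians was not tested.

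Genes of the polymerase and its other partners were called about as often as tested genes in general. Of 84 genes in 5 lists, 71 passed the filter, 6 rose and 5 fell, with a median of 0.097. The 11 calls among 71 genes compare with 15.9% of all tested genes called, of which 6.07% were higher and 9.85% lower. Among RNA polymerase II subunits 2 of 12 rose and 1 fell: POLR2C by 0.84 and POLR2D, a stalk subunit, by 0.70, while POLR2H, shared by all nuclear polymerases, fell by 0.72 (limma adjusted p = 0.0102, 0.00465 and 0.0155). Among general transcription factors 1 of 15 rose and 3 fell. GTF2A1 of TFIIA, GTF2E1 of TFIIE and TBP, which binds the TATA box, fell by 0.79, 0.79 and 0.67. The 1 that rose was the TFIIH assembly factor MNAT1, by 0.53, named after its value was seen.

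Of 19 pausing and elongation genes 2 rose. CDK9, the kinase that releases paused polymerase, went from 14.3 ± 1.23 to 23.0 ± 1.83 FPKM, and its inhibitor HEXIM1 from 7.97 ± 1.09 to 15.7 ± 0.513 (SD, n = 3), rises of 0.65 and 0.90 (limma adjusted p = 0.00704 and 0.00207). TAF11, of TFIID, was the 1 of 12 TAFs that rose, by 0.37, and the coactivator NCOA3 the 1 of 13 coactivators that fell, by 0.34. CDK9, HEXIM1, POLR2C, POLR2D, GTF2A1 and GTF2E1 were called in every setting that tested them. POLR2H, TBP and TAF11 were not called without siNC replicate 3 or without any one of the siSHMT2 libraries (limma adjusted p from 0.0508 to 0.147). Over all tested genes, too, fewer were called in these fits. NCOA3 was not called without any one library except siNC replicate 2 (adjusted p from 0.0806 to 0.194). TBP and NCOA3 were also not called with TPM scaling (adjusted p = 0.10003 and 0.282), FPKM from read sums (0.0634 and 0.180) or voom (0.0598 and 0.146), nor TAF11 with TPM scaling (0.0538). Without a filter POLR2H, TBP and NCOA3 were not called (0.0604, 0.0785 and 0.104), and with the replicate block TAF11 and NCOA3 were not (0.102 and 0.119). MNAT1 was not among the called genes with TPM scaling, with no filter, with the replicate block or without siSHMT2 replicate 1, 2 or 3.

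**Figure D4:**
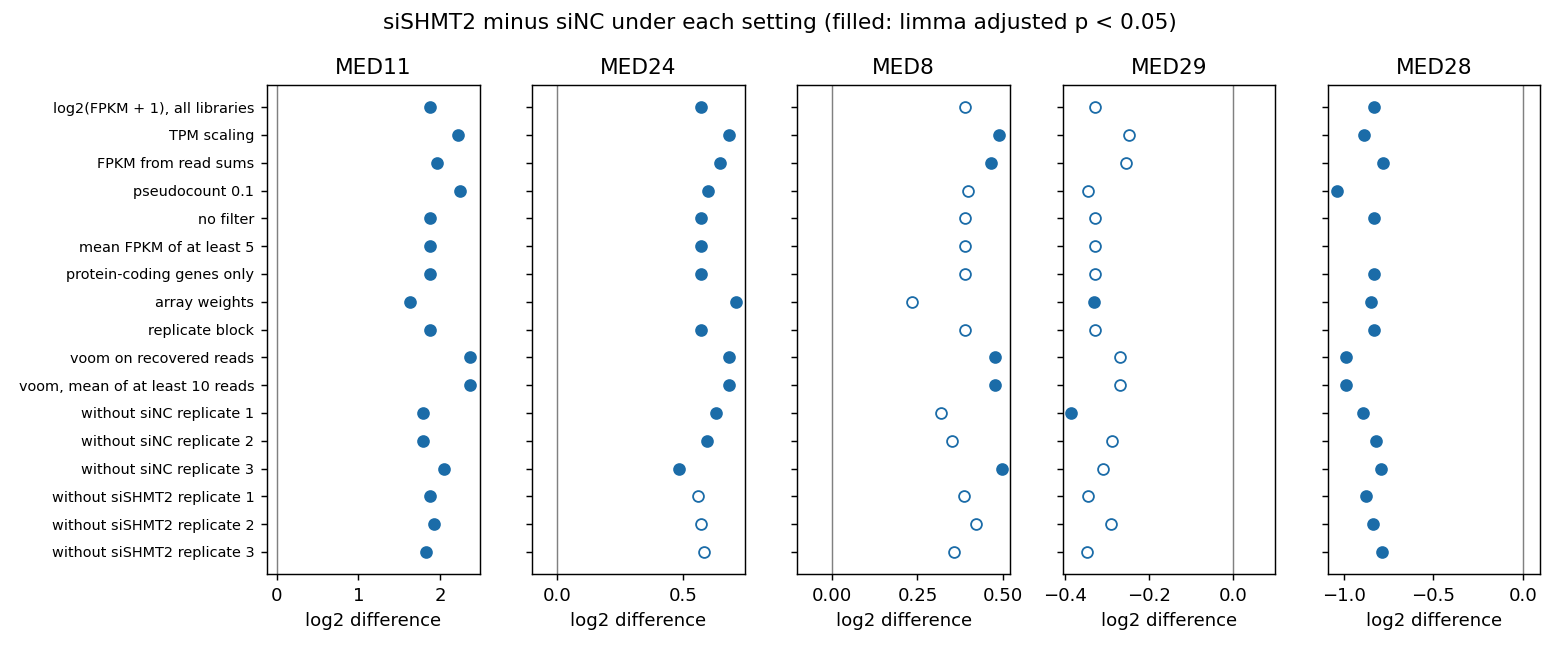
Difference between siSHMT2 and siNC on the log2 scale for 5 Mediator transcripts (panels) under each processing setting (rows), filled where the limma adjusted p was under 0.05. MED11 and MED28 are filled in every setting that tested them, MED24 is open without any one siSHMT2 library, and MED8 and MED29 are filled in 5 and 2 settings.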

How the data were processed

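RNA was measured in 6 LX2 libraries, grouped by their titles. The authors deposited 1 table of FPKM values with gene lengths and coordinates. The authors' tools, per the submitters' processing notes, included featureCounts 1.5.0-p3 and HISAT2 2.0.5, and the build named there is hg18. The coordinates did not bear out hg18: 33 of 33 members overlapped the same gene in GENCODE 29 (GRCh38), 18 with identical ends, as had 79.7% of 58516 shared genes. Reads were recovered from the deposited FPKM and the gene lengths, since 100% of nonzero products lay within 0.02 of a whole number of steps. The library totals that the FPKM imply are 0.957 to 1.13 times the sums of these reads, and how they were set is not stated.

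On the log2(FPKM + 1) scale, genes with a mean of at least 1 FPKM were fitted in R 4.3.3 by limma 3.58.1 with a mean-level trend. The fit was checked on simulated reads with the same dispersion in both groups, scaled by their own sums. That check does not cover the larger spread of siNC or the library totals behind the FPKM. Alternatives covered scaling, a pseudocount of 0.1, the filter, gene biotype, array weights, a replicate block, voom and leaving out each library. Coordinates of genes are those of the table, and exon overlaps, 3′ UTRs and word sites come from GENCODE 29. Per-library values were given for called members, the most abundant of each module and further members picked after their values were seen. Of each polymerase list up to 3 called genes were named, with any gene within 5 kb of a called member. The members and lists were chosen with earlier results of these data known, among them the rise of MED11.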

Additional observations from a re-analysis of the deposited data

How the results depend on the processing

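Scaling moved the balance of all calls. Lower genes were 61.9% of calls with FPKM, 47.5% with TPM, 49.1% with FPKM from read sums and 48.3% with voom. The median difference over all tested genes was 0.018, 0.109, 0.083 and 0.102 in these settings. In each of them 18 of 28 members were positive, and MED8 was called with TPM, read sums and voom but not with FPKM. With array weights 15 members were positive, and without 1 library 14 to 17. Mediator subunits called higher numbered 6 with array weights, against 2. Those called lower numbered 4 with array weights and 2 with voom on genes with at least 10 reads, against 1. At a mean FPKM of at least 5, where MED28 was not tested, 0 were called lower. Array weights also raised the calls over all 10865 tested genes, to 1827 higher and 1976 lower, against 659 and 1070. Leaving out 1 library gave 1 to 3 called higher and 1 to 3 called lower. Over all tested genes it gave 229 to 729 higher and 498 to 1132 lower, with the fewest calls when a siSHMT2 library was left out. The SHMT2 difference was -3.98 to -3.75 without 1 library. In the polymerase lists array weights, which raised calls over all tested genes too, gave 18 higher and 8 lower, against 6 and 5. The lower count was 3 with TPM, with FPKM from read sums and with voom, and 2 with no filter and likewise under the stricter filter of 5 FPKM. Without 1 library, 4 to 8 were higher and 2 to 6 lower. MED10, MED19 and MED23 turned to -0.087, -0.20 and -0.030 with array weights. Without 1 library MED10 ran from -0.028 to 0.083, MED19 from -0.19 to 0.13, MED26 from -0.043 to 0.18, MED16 from -0.096 to 0.26, MED23 from -0.057 to 0.047 and CCNC from -0.051 to 0.27, none of them called. The cause was not tested. Deviations from the group means had correlations of -0.0183, -0.349 and 0.243 between same-numbered libraries. Between differently numbered libraries of the 2 groups they ran from -0.483 to 0.496. With 3 libraries per group these values cannot settle whether the numbers pair the libraries. With the replicate block 374 genes were higher and 696 lower, against 659 and 1070, and 2 and 1 members, as without it. Depth limits MED18 and MED12L, with at most 24 reads per library.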
